A study of Mus musculus with 80 samples.

Results

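The H3K9me2 ChIP-seq of mouse ESCs in serum and after 24 h in 2i is described here at the level of 100-kb windows, gene bodies and gene starts. It comprised 6 of the 80 samples of the series, namely 2 bound libraries and 1 input for each medium, chosen by their labels. All came from the wild-type ESC line E14. In serum, cells were kept with LIF and fetal calf serum. In 2i they were kept for 24 h in serum-free N2B27 with LIF, the MEK inhibitor PD0325901 and the GSK3 inhibitor CHIR99021. Chromatin was cross-linked, sonicated and bound with the H3K9me2 antibody ab1220. Of the 1026637 bins of 2 kb in the deposited table, 995876 autosomal bins (1991.75 Mb) were analysed, and they held 18967447 and 18234000 reads in the serum libraries, 14153876 and 14688471 in the 24 h libraries, 19337270 in the serum input and 23336853 in the 24 h input. No spike-in is named in the sources used here, so every value is a share of a library, and a loss of H3K9me2 shared by the whole genome could not be seen. The paper reports such a loss, by western blot and immunofluorescence, and describes it as rapid. A rise or gain below is thus one in the share of the library, and need not be a gain in the amount of the mark.

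H3K9me2 is the dimethylated form of lysine 9 on histone H3. It is placed mainly by the paired methyltransferases G9a and GLP, encoded by Ehmt2 and Ehmt1, covers broad domains of silent chromatin, and is low over transcribed genes. UHRF1, which brings the maintenance methyltransferase DNMT1 to replicating DNA, recognises methylated H3K9. The question of the comparison was which loci gain or lose the mark, relative to the rest of the library, during the first day of the serum-to-2i conversion. A level below is log2 of bound over input, each as reads scaled to library size (RPM), and a change is the difference in log2 RPM of the bound libraries, 24 h minus serum. RNA-seq of E14 in the same media (3 samples each) served to group genes and to check cell identity. The 10 ESC markers were all transcribed, with deposited log2 values of 5.75 to 9.12 in serum and 3.71 to 10.7 at 24 h. Of 10 fibroblast markers, 3 had a value of 0 or more in each medium, led by Col1a1 (2.49 in serum). Of 14 primitive endoderm genes, 6 had such a value in serum and 4 at 24 h, led by Lamb1 (3.55 in serum).

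The overall distribution of H3K9me2 was nearly the same in both media. Over 22803 windows of 100 kb, the SD of the level was 0.715 and 0.762 in the serum libraries and 0.761 and 0.763 at 24 h, so that serum replicate 2 had the same spread as both 24 h libraries. The difference between the media was 0.023, less than the difference between the 2 serum libraries, and it was -0.00058 with serum replicate 1 left out. In long-term 2i (LT2i), the same measure was 1.17 and 1.21. The window at the 10th percentile held 0.445 and 0.415 times the input in serum, 0.412 and 0.411 times at 24 h, and 0.226 and 0.213 times in LT2i. At the 90th percentile the ratios were 1.46 and 1.49 in serum, 1.499 and 1.501 at 24 h, and 1.71 and 1.75 in LT2i. LT2i levels are given for reference.

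Across windows the log2 RPM of replicates correlated with Pearson's r of 0.983 in serum and 0.991 at 24 h, and pairs from different media with r of 0.967 to 0.979, as a description over windows that share libraries. The SD over windows of the log2 difference between a pair of libraries was 0.131 in serum, 0.095 at 24 h, and 0.145 to 0.180 between a serum and a 24 h library, with the pairs of serum replicate 2 the closer. No window differed 2-fold. Windows held a median of 617 to 812 reads per bound library, gene bodies 124 to 181, and gene starts 14 to 19.

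**Figure D1:**
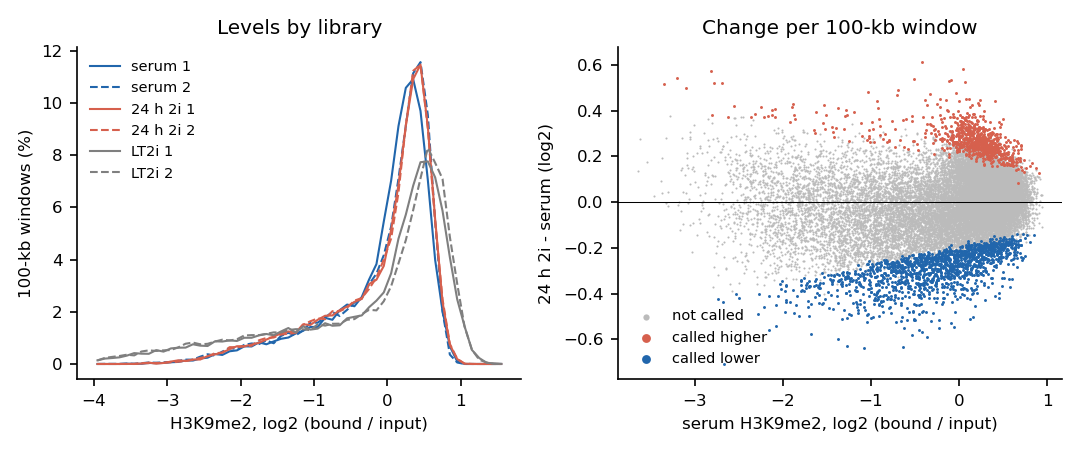
Left, percent of 22803 autosomal windows of 100 kb against their H3K9me2 level (log2 bound over input) for each bound library; the curves of 24 h of 2i lie on that of serum replicate 2, and the LT2i curves are broader. Right, change at 24 h (log2) against the mean serum level, 1 point per window, with the 818 windows called higher and the 1450 called lower in colour.

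In limma across all windows, 2268 of 22803 (9.95%) passed a Benjamini-Hochberg threshold of 0.05, and are named called here. Of them, 818 (3.59%) were higher and 1450 (6.36%) lower at 24 h. The balance moved with the processing. It was 1784 higher and 1790 lower with the input subtracted, 598 and 1540 with median centring, and 940 and 1526 with quantile normalisation. The same single input was subtracted from both bound libraries of a medium. Its noise thus counts as a difference between media, and the calls with the input subtracted do not allow for it. The median change of called windows was 0.26 in those called higher and -0.28 in those called lower, and 44 changed by 0.5 or more. The count depended on single libraries. It was 132 without 24 h replicate 2, 168 without 24 h replicate 1, 1656 without serum replicate 1 and 5720 without serum replicate 2. With 2 samples against 2, an exact permutation test of a single value cannot go below p = 0.333, so that every call rests on the spread shared across features, and nothing in the labels says that the replicates came from separate cultures.

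Windows called lower lay mostly over genes and windows called higher mostly between them. Of 9983 windows with genes over 50% or more of their length, 1185 (11.9%) were lower and 114 (1.14%) higher, with a median change of -0.05. Of 7587 windows without a gene, 524 (6.91%) were higher and 62 (0.817%) lower, with a median of 0.07. In the 4623 windows without a gene within 100 kb the median was 0.09, with 381 higher and 8 lower. The sign of each median was the same against either serum library, with 0.11 and 0.04 for windows without genes and -0.08 and -0.04 for windows mostly covered by genes. The serum libraries themselves differed along this split. The median of serum replicate 1 minus replicate 2 was -0.06 without a gene, -0.09 without a gene within 100 kb, and 0.03 in windows mostly covered by genes. Left-out libraries moved the counts more, from 12 to 1964 higher windows without genes and from 100 to 2202 lower windows over genes. The highest came without serum replicate 2, and the lowest without a 24 h library.

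The number of the 50 bins of a window that the table holds moved with the change as well. The authors kept bins by their input. The median change was 0.14 in the 1064 windows with 20 to 29 bins and -0.07 in the 6045 with 49 or 50. Within the latter, it was 0.00 in 683 windows without a gene (12 higher, 35 lower) and -0.10 in 4117 mostly covered by genes (31 higher, 743 lower). In windows with nearly every bin, the positive median between genes was thus absent, and the negative one over genes was larger than in all windows. Serum replicate 1 minus replicate 2 had a median of 0.08 in those 4117 windows over genes. The share of bins kept moves with gene cover, and its part in the result was not tested beyond this split.

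The windows with the largest falls all held genes. On chromosome 19 (GRCm38, chr19:4300001-4400000), over Kdm2a, a demethylase of H3K36, and Adrbk1, a kinase of G protein-coupled receptors, H3K9me2 was 9.44 and 10.3 RPM in serum and 5.72 and 6.26 RPM at 24 h. The change was -0.71 ± 0.14 (SE; limma adjusted p = 0.00056). On chr11:106800001-106900000, which holds Smurf2, a ubiquitin ligase of the TGF-beta pathway, it was 28.4 and 30.8 RPM in serum and 19.9 and 18.2 RPM at 24 h, a change of -0.64 ± 0.10 (adjusted p = 1.3e-05). Serum and 24 h libraries did not overlap in either window, as in 54.8% of all windows. On chr5:123600001-123700000, over Clip1, which binds microtubule ends, the values were 21.8 and 22.6 RPM in serum and 14.4 and 14.2 RPM at 24 h, with a change of -0.63 ± 0.11. The call in the Kdm2a window was lost without 24 h replicate 1, whereas the other 2 remained without any single library.

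The windows with the largest rises differed in kind from each other. The window chr9:6700001-6800000 held no gene and only 20 bins, with 11.97 and 15.3 RPM in serum and 19.9 and 21.6 RPM at 24 h (change 0.61 ± 0.11, adjusted p = 0.00027). It lay in the longest run of higher windows, 5 in a row over chr9:6400001-6900000. The window chr3:3000001-3100000, at the first assembled sequence of the chromosome, also held no gene and 25 bins. There the change was 0.58 ± 0.11, but the input itself differed by 0.29. The window chr7:19200001-19300000 in contrast holds 7 genes, among them Opa3, Vasp and Rtn2, and its level was low in both media (-2.81 in serum and -2.25 at 24 h). H3K9me2 there was 6.17 and 5.27 RPM in serum and 8.83 and 8.17 RPM at 24 h, a change of 0.57 ± 0.14 (adjusted p = 0.0066). Without 24 h replicate 2, none of the 3 rises was called, and without 24 h replicate 1 the one on chromosome 7 was also lost.

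Over gene bodies, H3K9me2 was more often lower than higher at 24 h. Of 12803 autosomal genes with 5 or more whole bins, 1039 (8.12%) were called, 977 lower (7.63%) and 62 higher (0.484%), at a median change of -0.08 over all. Falls outnumbered rises under each scaling, but by less. With the median log2 RPM of bodies set to 0 in each library (median centring) it was 464 lower and 332 higher, and with quantile normalisation 338 and 223. Called falls had a median of -0.37, and called rises 0.39. No gene was called in limma when the input was subtracted first, although 3045 genes had an unadjusted p under 0.05 and the median change over all bodies was -0.07. The sizes of change stayed alike at genes described below, with 1.82 for Spry4 (limma adjusted p = 0.078) and -0.84 for Eprs (adjusted p = 0.106).

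Falls were called more often in long genes, and their share varied with RNA. Of bodies with RNA under 0 in serum 286 of 5637 (5.07%) were lower, of those with RNA of 0 to 3 475 of 3890 (12.2%), of those with RNA of 3 to 5 203 of 2443 (8.31%), and of those with RNA of 5 or more 13 of 833 (1.56%), where 9 were higher. Among genes with an RNA value of 0 or more in serum, 248 of 1456 bodies of 50 to 100 kb (17.0%) and 227 of 751 of 100 to 200 kb (30.2%) were lower, with median changes of -0.19 and -0.17. The 475 lower calls in both length classes together became 257 with median centring and 171 with quantile normalisation, and 158 (without 24 h replicate 2) to 725 (without serum replicate 2) with 1 library left out. Of 1764 such genes under 20 kb, 10 were lower and 10 higher, at a median of 0.00. Longer bodies hold more reads and can be called at smaller changes. The serum level also differed with RNA, at -2.03 with RNA of 5 or more against 0.23 with RNA under 0. A lower level leaves fewer reads over the same length, and its part in the shares called by RNA was not tested. In genes with an RNA value under 0, medians ran from -0.07 (50 to 100 kb) to -0.02 (200 kb or more). Scaling decided that sign. The median of all genes with RNA under 0 was -0.04 here, 0.05 with median centring and 0.04 with quantile normalisation. That of genes with RNA of 0 or more was -0.12, -0.03 and -0.04. The balance of calls turned as well. Of genes with RNA under 0, 23 were called higher and 286 lower here. With median centring it was 195 and 108, and with quantile normalisation 121 and 89. Against either serum library alone the median of transcribed genes of 50 to 100 kb was -0.21 and -0.16. Summed over these 1456 bodies, the level was -1.01 and -1.07 in serum and -1.19 and -1.19 at 24 h, so both 24 h libraries lay below both serum libraries.

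**Figure D2:**
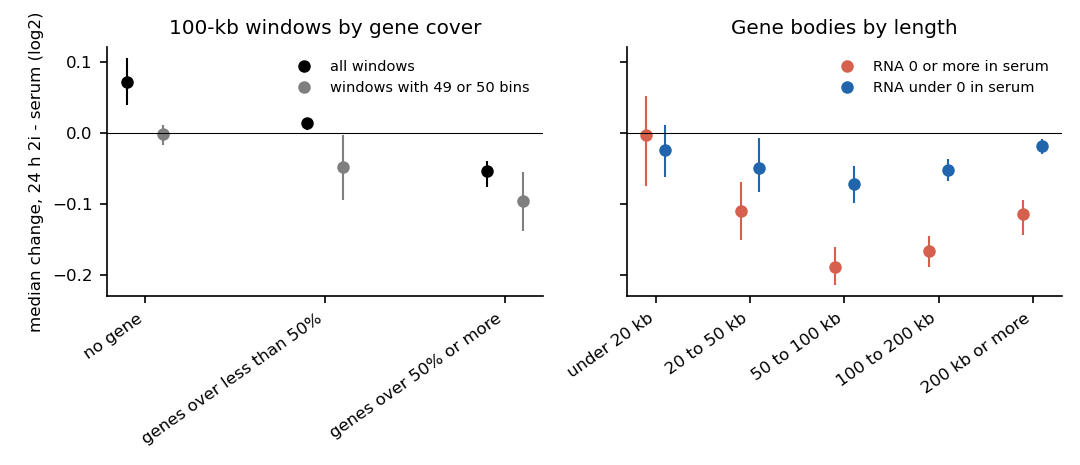
Median change at 24 h of 2i (log2, points) of 100-kb windows by the share of their length covered by genes (left) and of gene bodies by length and serum RNA (right); vertical lines join the medians against serum replicate 1 and serum replicate 2 alone. Transcribed genes of 50 to 100 kb lie lowest at -0.19, and fully covered windows without genes lie at 0.00.

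Of the 10 named bodies with the largest falls, 2 kept their call without any single library, Eprs and Ddx1. Eprs, which encodes the glutamyl-prolyl-tRNA synthetase (chr1:185363095-185428355), held 84 and 89 reads in serum and 35 and 35 reads at 24 h, or 4.43 and 4.88 RPM against 2.47 and 2.38 RPM. The change was -0.91 ± 0.20 (SE; limma adjusted p = 0.0078). Ddx1, an RNA helicase (chr12:13219308-13249213), fell from 5.91 and 5.16 RPM to 3.11 and 2.66 RPM (change -0.92 ± 0.19, adjusted p = 0.0056). In both genes the serum and 24 h libraries were far apart compared with the replicates. Cdk12, a kinase of the tail of RNA polymerase II (chr11:98203059-98278504), held 5.22 and 5.54 RPM in serum and 2.54 and 3.40 RPM at 24 h. Its change of -0.85 ± 0.19 (adjusted p = 0.010) lost the call without 24 h replicate 1.

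The other named falls were Mob1a, an activator of Hippo pathway kinases, Vcp, an ATPase of protein quality control, Nudt2, a hydrolase of dinucleotides, Ube2g2, a ubiquitin-conjugating enzyme of the endoplasmic reticulum, Clcn6, a chloride transporter of endosomes, and the uncharacterised C130022K22Rik and A930028C08Rik. Their changes ran from -1.32 (Mob1a, with 35 and 25 reads in serum and 9 and 8 reads at 24 h) to -0.87 (Clcn6). Each of these 7 lost its call without at least 1 library, Vcp and Nudt2 without any of the 4. In RNA, Eprs, Vcp and Mob1a fell by 0.61, 0.52 and 0.38 on the log2 scale, Nudt2 rose by 1.17, and Ddx1 was -0.19 ± 0.11, which was not called, so their RNA had no common direction.

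Rises over gene bodies were fewer than falls. Of the called bodies, 20 rose by 0.5 or more and 194 had a change of -0.5 or less. Spry4, a feedback inhibitor of receptor tyrosine kinase signalling and a target of ERK (chr18:38586268-38601268), had the largest rise. It held 18 and 15 reads in serum and 41 and 46 reads at 24 h, or 0.949 and 0.823 RPM against 2.90 and 3.13 RPM, with inputs of 156 and 175 reads. The change was 1.72 ± 0.27 (3.29-fold, limma adjusted p = 0.0012), from a level of -3.11 to -1.29, and it was called without any single library. Its RNA was 4.77, 4.74 and 5.00 in serum and -4.70, -6.49 and -5.08 at 24 h, near the values of genes with few or no reads, so no fold is given for it. In LT2i its change from the same serum libraries was 1.45.

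Slc7a7, a transporter of cationic amino acids (chr14:54369444-54409472), held 62 and 68 reads in serum and 85 and 100 reads at 24 h. As RPM, which corrects for the deeper serum libraries, these were 3.27 and 3.73 against 6.00 and 6.81, a change of 0.87 ± 0.17 (adjusted p = 0.0052), while RNA fell by 2.23 ± 0.11. Gm98 (chr19:10208272-10240748) held 7.28 and 6.36 RPM in serum and 10.4 and 11.4 RPM at 24 h. Its change was 0.67 ± 0.13 (adjusted p = 0.0051), and its RNA fell by 3.61 ± 0.29. Slc7a7 and Gm98 each lost the call without 24 h replicate 2, with values of 0.77 or more and 0.58 or more on the log2 scale when any 1 library was left out. Enc1, an actin-binding protein of the kelch family, held 1.00 and 0.713 RPM in serum and 2.47 and 1.57 RPM at 24 h (19, 13, 35 and 23 reads). Its change was 1.18 ± 0.33 (adjusted p = 0.031), its RNA fell by 2.42 ± 0.11, and the call was lost without 24 h replicate 1 and without serum replicate 2. Peg10, an imprinted gene expressed from the paternal allele, held 2.85 and 3.24 RPM in serum and 4.88 and 4.90 RPM at 24 h, a change of 0.68 ± 0.18 (adjusted p = 0.028) that kept its call only without serum replicate 2. Peg10 RNA fell by 2.54 ± 0.18.

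Of the other named rises, RNA fell for Folr1, a folate receptor (H3K9me2 change 0.89, RNA -1.50), and Lmna, the gene of lamin A and C (0.79, RNA -0.55). For Pes1, a ribosome assembly factor, H3K9me2 rose by 1.07 and RNA by 0.35, and Rtn2, a membrane protein of the endoplasmic reticulum, rose by 1.38 in H3K9me2 and by 0.52 in RNA. Atat1, the acetyltransferase of tubulin, rose by 1.48 on 5 to 15 reads per library, with an RNA change of 0.23 that was not called. RNA was called lower at 24 h in 7 of the 10 named rises, in 29 of all 62 called rises and in 2746 of all 12803 tested bodies, and the lowest read numbers were those of Atat1, Rtn2 and Enc1. Across the 10 named rises, 6 calls were lost without 24 h replicate 1, 8 without 24 h replicate 2, 2 without serum replicate 1 and 4 without serum replicate 2.

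**Figure D3:**
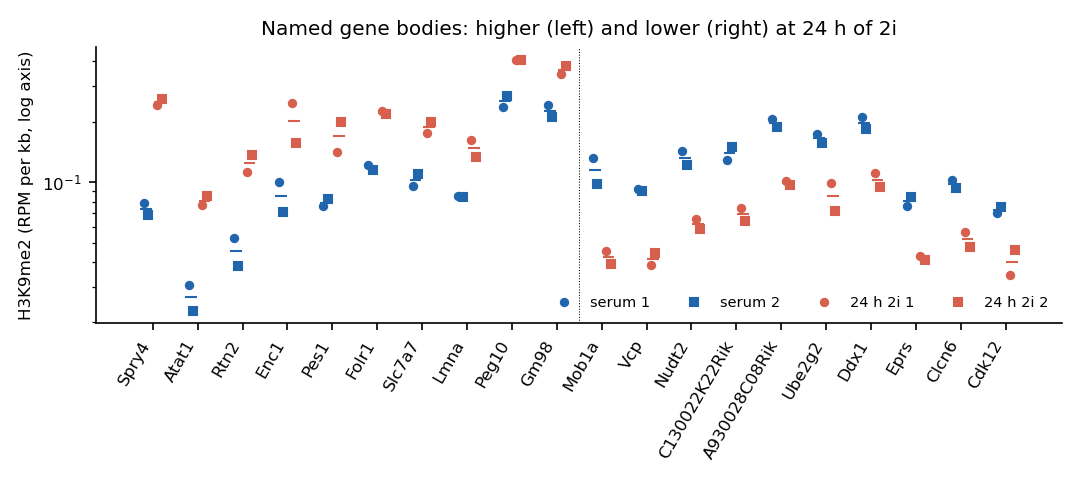
H3K9me2 over the 20 named gene bodies in each bound library, as RPM per kb of covered bins on a log axis (points, with a bar for the mean of each group); the 10 genes with the largest called rises stand left of the dotted line and the 10 with the largest falls right of it. Serum and 24 h libraries do not overlap in any of them, which the choice of genes required and which held for 51.7% of all bodies.

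RNA was called at 24 h for 7786 of 12306 genes (63.3%), 34.2% higher and 29.1% lower. A value of 3 or more in serum and a fall of over 2 on the log2 scale at 24 h was met by 112 genes with a tested body. Of these, 15 (13.4%) were called higher in H3K9me2, against 0.484% of all bodies, and 10 (8.93%) lower, against 7.63%. They made up 15 of the 62 called rises. Of 478 genes of the same serum level whose RNA fell by 1 to 2, 6 were higher and 48 lower, and of 1146 whose RNA was not called, 2 were higher and 48 lower. The difference between these classes was not tested. The median change of the 112 bodies was -0.05, against -0.08 for all. It was 0.04 with median centring and 0.05 with quantile normalisation. With median centring 21 of the 112 were called higher and 7 lower, against 332 and 464 of all 12803 bodies. With quantile normalisation it was 19 and 4, against 223 and 338. None was called with the input subtracted. Without 24 h replicate 2 or replicate 1, 2 and 5 of the 112 were called higher and 7 and 2 lower. Without serum replicate 2, 13 were higher and 13 lower, and without serum replicate 1, 16 and 12, so the excess of rises over falls depended on single libraries.

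The 15 genes were Spry4, Enc1, Slc7a7, Peg10, Gm98, Zfp518b, Jarid2, Rbpj, Zfp532, Tet2, Jmjd1c, Tns3, Ahnak, Zfp462 and Enox1. Jarid2, a partner of Polycomb repressive complex 2 (chr13:44729474-44921643), held 504 and 492 reads in serum and 482 and 549 reads at 24 h. As RPM this was 26.6 and 27.0 against 34.1 and 37.4, a change of 0.41 ± 0.08 (limma adjusted p = 0.0046), with RNA lower by 3.01. Rbpj, the DNA-binding factor of Notch signalling, changed by 0.41 ± 0.10 (adjusted p = 0.019) with RNA lower by 2.17. Enox1 had the smallest rise, 0.17 ± 0.04, over 265 bins with 276.2 and 276.5 RPM in serum and 315 and 305 RPM at 24 h.

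The 10 genes of the same class with lower H3K9me2 were Cdk12, Pdpr, Atm, Tnks, Ptch1, Birc6, Atad2b, Crebbp, Lnpep and Nipbl. Atm, the kinase that signals DNA breaks, changed by -0.59 ± 0.11 (adjusted p = 0.0047) with RNA lower by 2.57. Crebbp, a histone acetyltransferase, changed by -0.37 ± 0.08 with RNA lower by 2.56. H3K9me2 calls in both directions were thus found among genes with a strong loss of RNA. Of the 10 genes with the largest RNA changes, 5 in each direction, 6 had a tested body and only Spry4 was called. The values of the other 5 were -0.23 for Trpm1 (adjusted p = 0.056) and -0.06 for Tmem117, both with RNA that rose, and 0.03 for Gm9581, 0.06 for Tnfsf11 and 0.04 for Spna1, with RNA that fell. Of the 163 genes whose RNA rose by over 2, none was called higher and 17 (10.4%) were lower, near the 0.484% and 7.63% of all bodies, with a median change of -0.13. With median centring 4 of them were called higher and 7 lower, and with quantile normalisation 3 and 5. With 1 library left out, 3 (without 24 h replicate 2) to 35 (without serum replicate 2) were lower.

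**Figure D4:**
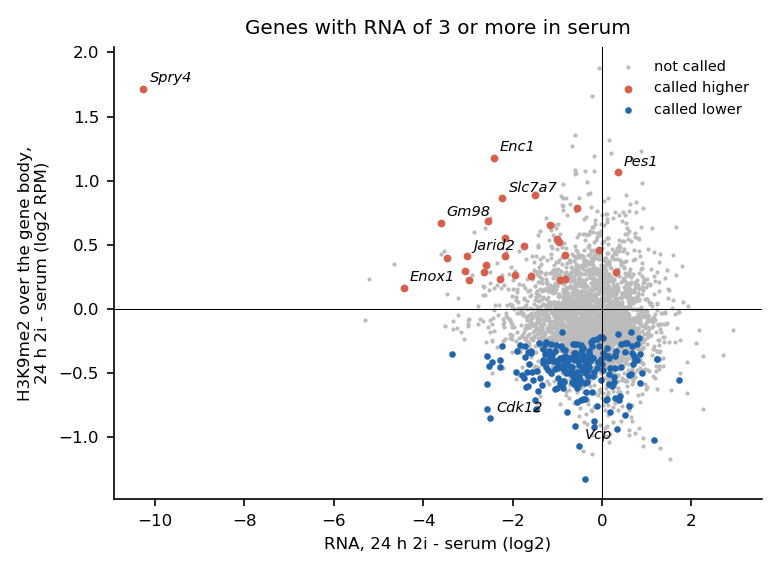
Change in H3K9me2 over the gene body (log2 RPM) against change in RNA (log2), 24 h of 2i minus serum, for genes with an RNA value of 3 or more in serum; coloured points were called in H3K9me2. Called rises lie mostly at RNA changes below 0 with Spry4 at the far left, and called falls spread over both sides.

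The profiles along 4 genes, chosen after their values were seen, show where the differences lay. At Spry4 the 24 h libraries were above the serum libraries over the body and, by less, upstream of it. The difference was thus not limited to the gene. The adjacent gene upstream, 9630014M24Rik, was itself called higher over its body (0.49 ± 0.13, limma adjusted p = 0.028). It held 11.3 and 8.45 RPM in serum and 14.5 and 13.1 RPM at 24 h. At Jarid2 H3K9me2 was lowest near the start and higher towards the far end in all 4 libraries, with the 24 h libraries above serum in most steps of the body and just past its end, but not from about 200 kb onwards. Eprs was low over most of its body in both media and higher past its end, where serum also exceeded 24 h up to about 90 kb from the start and overlapped with it further on. Kdm2a, a gene with the window of the largest fall, differed mainly in the middle of its body, and upstream of it the media overlapped.

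**Figure D5:**
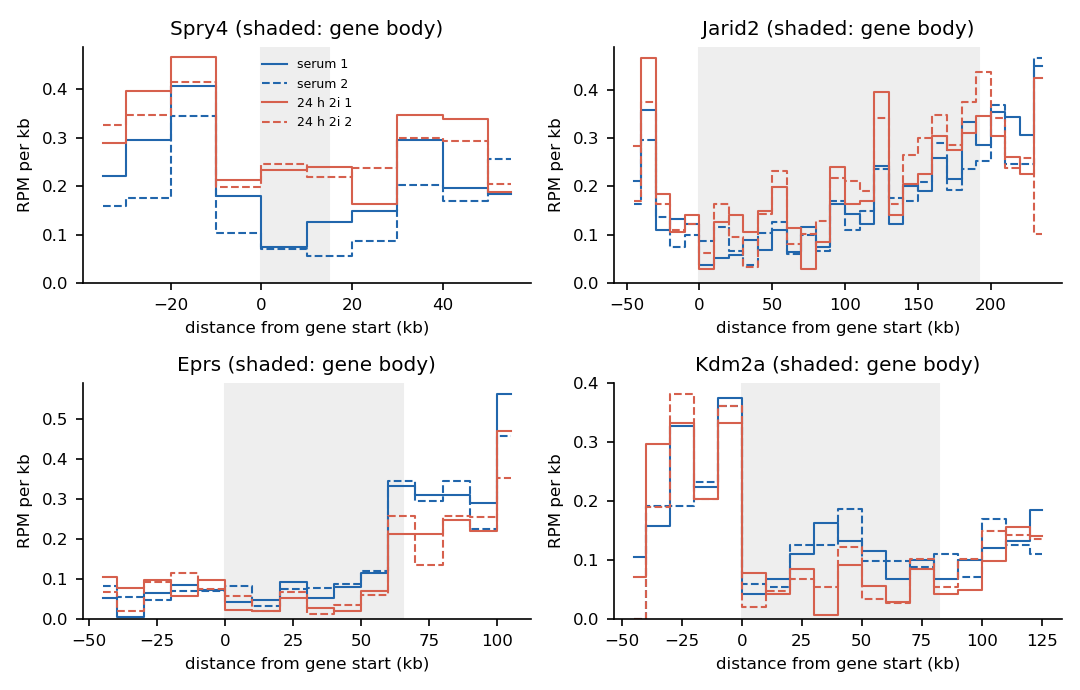
H3K9me2 in RPM per kb, averaged over steps of 10 kb, against distance from the gene start for Spry4, Jarid2, Eprs and Kdm2a in each of the 4 bound libraries; the gene body is shaded. The 24 h lines lie above the serum lines over Spry4 (0.949 and 0.823 RPM in serum, 2.90 and 3.13 RPM at 24 h) and below them in the middle of Kdm2a (8.01 and 8.39 against 4.73 and 4.77 RPM over its whole body).

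No single gene start was called. Within 3 kb either side of 22961 starts, 0 passed an adjusted p of 0.05 in limma (0%), with 1960 at an unadjusted p under 0.05 and a smallest adjusted p of 0.34. The libraries of serum and 24 h did not overlap at 38.5% of starts. Starts hold few reads. In simulated data, changes were placed only in starts with at least the median number of reads. Of such starts changed by 1 on the log2 scale 51 of 100 were recovered, and 4 of 100 at 0.5. Moderate changes thus could not be detected at this depth, and starts with fewer reads were not simulated with a change. With a pseudocount of 10 reads 321 starts were called, 312 of them higher, and with input subtraction 277, 181 of them higher. Adding 10 reads raises the shallower 24 h libraries more, and with it the median change over starts moved from 0.05 to 0.17. The direction of those 312 calls thus cannot be read as a gain. With input subtraction, both bound libraries of a medium share 1 input, so its noise counts as a difference between media.

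Summed over classes, starts of genes with RNA of 3 or more had a slightly higher level of H3K9me2 at 24 h. For 5504 starts with RNA of 0 to 3 in serum, the levels of -1.86 and -1.95 in serum and -1.82 and -1.83 at 24 h were apart by less than the serum replicates. For 3505 starts with RNA of 3 to 5 in serum, the level was -2.32 and -2.39 in serum and -2.17 and -2.19 at 24 h. For 1532 starts with RNA of 5 or more it was -2.29 and -2.37 in serum and -2.19 and -2.18 at 24 h. In the classes with RNA of 3 to 5 and of 5 or more, the 24 h libraries lay above the serum libraries by more than the replicates differed, which was not tested. For 12420 starts with RNA under 0 the levels of -0.46 and -0.52 in serum and -0.49 and -0.49 at 24 h overlapped. In the 2-kb step at the start itself, genes with RNA of 3 to 5 had levels of -2.93 and -3.005 in serum and -2.69 and -2.72 at 24 h.

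The upstream sequence of 3 genes with called bodies and lower RNA is shown, since the starts of transcribed genes are where H3K9me2 was lowest. The 250 bases before the RefSeq start (GRCm38.p6) were taken for Slc7a7 (chr14:54409473-54409722, minus strand) and Etv5 (chr16:22439571-22439820, minus strand), whose bodies rose, and Cdk12 (chr11:98203055-98203304, plus strand), whose body fell. Capitals mark CpG dinucleotides, the sites of DNA methylation. A start within 1 kb of that in the deposited table was found in RefSeq for 11 of the 20 named genes. The RefSeq start of Slc7a7 was that of the deposited table. Those of Etv5 and Cdk12 lay 149 and 246 bases inside the gene of that table. Most of the bases shown for Etv5 and Cdk12 are thus upstream of the RefSeq start only.
Slc7a7: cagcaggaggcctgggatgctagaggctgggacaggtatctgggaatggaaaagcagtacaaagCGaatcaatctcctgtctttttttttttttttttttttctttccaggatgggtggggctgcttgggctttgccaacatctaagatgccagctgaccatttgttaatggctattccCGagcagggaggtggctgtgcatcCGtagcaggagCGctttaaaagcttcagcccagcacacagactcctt
Etv5: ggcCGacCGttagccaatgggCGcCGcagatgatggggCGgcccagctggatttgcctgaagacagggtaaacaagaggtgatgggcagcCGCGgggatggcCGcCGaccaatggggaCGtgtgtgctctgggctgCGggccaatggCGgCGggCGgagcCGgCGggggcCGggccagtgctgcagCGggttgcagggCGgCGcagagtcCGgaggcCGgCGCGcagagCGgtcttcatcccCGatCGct
Cdk12: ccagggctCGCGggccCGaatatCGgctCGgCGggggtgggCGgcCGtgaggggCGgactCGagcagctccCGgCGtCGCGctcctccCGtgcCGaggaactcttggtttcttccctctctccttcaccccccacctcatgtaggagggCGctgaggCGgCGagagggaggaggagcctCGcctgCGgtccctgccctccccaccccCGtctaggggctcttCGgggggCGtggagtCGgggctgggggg
Slc7a7 has 4 CpG in these bases, more than 37.3% of 31396 autosomal promoters. Etv5 has 27 and Cdk12 has 25, more than 91.2% and 89.0%. Within 3 kb of these starts H3K9me2 was scarce in every library, with 5 and 2 reads at Slc7a7 in serum and 2 and 2 at 24 h, 2 and 3 reads at Etv5 in serum and 4 and 3 at 24 h, and 7 and 2 reads at Cdk12 in serum and 5 and 1 at 24 h. The start of Slc7a7 is thus the one poor in CpG, and no start held much of the mark in either medium.

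Among genes placed in lists by function, targets of ERK had the highest median. Of 15 targets 6 had a tested body, with a median change of 0.43 against -0.08 for all bodies. Of these, 2 were called higher, Spry4 and Etv5, against 0.484% of all. The 6 bodies held few reads, with a median of 27.6. Their median change in LT2i, from the same serum libraries, was -0.52. Etv5, an ETS factor induced by ERK, held 8.28 and 6.20 RPM in serum and 11.2 and 9.46 RPM at 24 h. The groups did not overlap, as in 51.7% of all bodies, but serum varied. The change was 0.52 ± 0.15 (limma adjusted p = 0.038), with RNA lower by 0.96. The values of the other 4 were 0.71 for Epha2, 0.35 for Dusp4, 0.28 for Spred1 and -0.09 for Etv4, none of them called.

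Of 8 tested Wnt targets, 3 were called lower and none higher, with a median of -0.16. These were Nkd1 (-0.47), Znrf3 (-0.25) and Rnf43 (-0.35), all feedback inhibitors of Wnt signalling. Nkd1 held 56.3 and 44.97 RPM in serum and 34.5 and 38.1 RPM at 24 h, with the serum libraries further apart than those of 24 h. Of 9 naive pluripotency genes 1 was called, the nuclear receptor gene Nr5a2 (-0.38 ± 0.08, adjusted p = 0.0062). It held 42.5 and 44.5 RPM in serum and 31.2 and 35.6 RPM at 24 h. None of 4 formative and primed genes and none of 10 primitive endoderm genes was called in limma, with 0 and 4 at an unadjusted p under 0.05, the 4 all lower.

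Of 11 genes of H3K9 methyltransferases and partners, only Zfp644, which recruits G9a, was called (-0.21 ± 0.06, adjusted p = 0.037). Ehmt1 had a change of -0.23 and Ehmt2 one of 0.47 on 11 to 14 reads per library, and RNA of both fell by 1.19 and 1.00. Of 10 demethylase genes, Jhdm1d (-0.44) and Phf2 (-0.32) were lower and Jmjd1c was higher (0.30 ± 0.09, adjusted p = 0.044). Jmjd1c held 19.7 and 20.4 RPM in serum and 24.2 and 25.0 RPM at 24 h, and its RNA fell by 3.07.

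Of 11 genes of the DNA methylation machinery, Tet2, which oxidises methylcytosine, was higher and Uhrf2, the paralog of Uhrf1, lower. Tet2 held 15.1 and 14.3 RPM in serum and 18.8 and 18.4 RPM at 24 h (change 0.34 ± 0.10, limma adjusted p = 0.037). Its RNA fell by 2.58, from 4.14, 4.2 and 4.36 in serum to 1.22, 1.21 and 2.5 at 24 h, with 24 h replicate 3 apart. The paper in contrast describes Tet2 as transcribed at a similar level during the conversion, and the reason for the difference was not tested. Uhrf2 held 15.1 and 13.98 RPM in serum and 9.33 and 9.53 RPM at 24 h (change -0.62 ± 0.11, adjusted p = 0.0032), with an RNA change of 0.0036 that was not called. Groups did not overlap in either gene, as in 51.7% of all bodies. Dnmt3l, the cofactor of de novo methylation, had a value of 0.43 with an RNA fall of 3.59, and was not called (adjusted p = 0.14). Uhrf1 had a value of 0.26 that was not called.

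Of 15 germ line genes 2 were lower, Brdt (-0.31) and Ddx4 (-0.34), and none was higher, with a median of -0.17. Ddx4, an RNA helicase of germ cells, held 30.6 and 30.1 RPM in serum and 24.2 and 23.8 RPM at 24 h. Of 16 imprinted genes, Peg10 was higher and Igf2r, the receptor that clears IGF2, lower (-0.33), with a median of 0.07. None of 4 housekeeping, 3 ESC marker and 7 fibroblast marker bodies was called in limma, with 0, 0 and 1 at an unadjusted p under 0.05. The members of these lists were read against 0.484% of all bodies called higher and 7.63% called lower, and the lists were not tested as sets.

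Gene families in clusters showed small differences. Of 50 vomeronasal receptor bodies 1, Vmn1r90, was called higher and none lower, with a median of 0.17. Summed over these bodies, the level was 0.078 and 0.208 in serum and 0.241 and 0.244 at 24 h, so serum replicate 1 lay further from serum replicate 2 than the latter from 24 h. Of 206 zinc finger genes 3 were higher (Zfp518b, Zfp532 and Zfp462) and 9 lower, with a median of 0.02. Of 49 cytochrome P450 genes 1 was lower, and of 10 olfactory receptor genes with tested bodies none was called, with 2 at an unadjusted p under 0.05. Over the starts of 1029 olfactory receptor genes the level was 0.155 and 0.268 in serum and 0.280 and 0.283 at 24 h, again with serum replicate 1 apart. Bodies of 5 Hox, 5 keratin, 4 ribosomal protein, 3 defensin, 2 protocadherin and 1 histone gene were tested in limma and none was called, with 1 keratin and 2 protocadherin genes at an unadjusted p under 0.05. Median centring raises every body by the same amount, so the signs of medians near 0 depend on the scaling.

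Changes at 24 h can be set beside those of LT2i, which use the same serum libraries. Over the 12803 bodies the median was -0.08 at 24 h and -0.81 in LT2i, and in windows mostly covered by genes it was -0.05 and -0.40. Single genes differed in how the values compared. Eprs was -0.91 at 24 h and -1.51 in LT2i, and Spry4 1.72 and 1.45. Gm98 was 0.67 and -1.45, Lmna 0.79 and -1.17, and Slc7a7 0.87 and -0.20.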

How the data were processed

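Per the labels and file headers, each ChIP-seq value the authors deposited is the log2 of reads in 1 bin of 2 kb. To recover reads, libraries were taken as scaled to the largest, with 0.9 reads entered where a bin had none. The table holds bins with at least 8 scaled reads in each input. The submitters' processing notes name Trim Galore 0.3.5 and Bowtie2 without roles, and the build was GRCm38. Undoing log and scale gave whole reads within 0.02 for 100% of values. On the autosomes, 84 bins with a mean input over 3 times the median were removed.

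Reads were summed over 100-kb windows (20 or more bins), whole bins within genes (5 or more) and bins centred within 3 kb of starts, and taken as log2 RPM with 1 read added. limma 3.58.1 (R 4.3.3), with a mean-variance trend, compared the 4 bound libraries. RNA-seq values, also log2 as deposited, were fitted over 12 libraries for genes with 0 or more in at least 3.

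Named were the 10 largest called rises and falls of bodies without overlap between groups and 100 kb apart, 3 windows per direction 1 Mb apart, 5 RNA genes per direction, and members of the lists. Other genes, among them Kdm2a, Jarid2, Rbpj, Enox1, Atm and Crebbp, were picked after their values were seen. Members, classes and lists were chosen with earlier results of these data known. In simulated data, 89 of 100 gene bodies and 100 of 100 windows changed by 0.5 were recovered. The changes were placed only in features with at least the median number of reads. Recovery at features with fewer reads was not simulated. All columns were mapped to samples.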

Additional observations from a re-analysis of the deposited data

How the results depend on the processing

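Counts of called windows (2268) were 3574 with the input subtracted, 1061 with all 6 bound libraries in the fit, 367 of 4618 with windows of 500 kb, and 132 to 5720 with 1 library left out. Counts of called bodies (1039) were 561 with quantile normalisation, 0 with the input subtracted, 621 with all 6 bound libraries and 287 to 2048 with 1 library left out. For gene starts (0), 1 was called without the bin filter, 277 with the input subtracted, 321 with a pseudocount of 10 reads and 0 to 9 with 1 library left out. For single 2-kb bins, 0 of 995876 were called in limma (66335 at an unadjusted p under 0.05), and 0 to 774 with 1 library left out, the highest without 24 h replicate 2. In simulated data no changed bin was recovered. When the input is subtracted, noise of the 1 input per medium adds to the difference between media. The pseudocount of 10 reads raises starts more in the shallower 24 h libraries. How much these settings moved the counts, and the cause of the other shifts, was not tested. The RNA count (7786) stayed within 1.5 times under each alternative.

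The spread of the level (0.023, 24 h minus serum) was 0.023 to 0.039 under other windows, inputs and filters, and -0.00058 to 0.047 with 1 library left out. The median change of bodies with RNA under 0 in serum (-0.04) turned to 0.0468 with median centring and 0.0412 with quantile normalisation. That of bodies with RNA of 0 or more (-0.12) was -0.0299 and -0.0413 with these, and -0.0665 with a pseudocount of 10 reads. No named body, window or RNA gene changed direction under any alternative run, and the 20 bodies lost their call with the input subtracted. Named bodies and windows were chosen for large changes without overlap between groups. Leaving out 1 library thus could not turn their direction, and this stability is no support for them.

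The counts above come from fits that took the samples as unpaired. Deviations of same-numbered bound libraries correlated at 0.036 over windows and 0.0096 over bodies. With so few bound libraries per medium, this cannot decide whether the replicate numbers pair the samples. The same check was not run for RNA, so pairing of the RNA samples was not tested. With the replicate block 2687 windows, 1417 bodies, 0 starts, 0 bins and 8739 RNA genes were called. Class counts and left-out serum libraries for classes were added after seeing the data. Depth limits starts and bins most.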
